A study of Mus musculus with 55 samples.

Results

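The genes described here are 30 enzymes and regulators of sterol and fatty acid synthesis, measured by RNA sequencing of left ventricular infarct tissue from mice. They were chosen by symbol from knowledge of these pathways, with earlier results of these data known, so their counts carry no test of their own. The symbols were matched to the gene identifiers of the count tables. All 30 were found, among 56941 genes at day 7 and 57186 at day 28 after infarction. All 30 passed the filter on low counts in every comparison. They comprise 6 enzymes of the mevalonate pathway, 11 enzymes of the sterol branch, 4 regulators, 4 enzymes that make fatty acids from acetyl units, and 5 elongases and desaturases.

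The 55 libraries came from C57BL/6J mice whose coronary artery had been ligated permanently, and fall into 6 groups. The non-diabetic, type 1 diabetic and type 2 diabetic groups held 8 libraries each at day 7, and 11, 10 and 10 respectively at day 28. The library names tie type 1 to "hi STZ" and type 2 to "lo STZ HFFD", and no group without infarction was analysed here. Sex, age and the length of diabetes were not given in the sources used here. The day 28 groups rest on the sample labels, as the design text speaks of day 7 alone. Nothing in the labels says that a replicate is an animal of its own. Every p-value below therefore measures the spread between libraries, which may be in part technical. Each day was one sequencing project, so the day and the project cannot be told apart, and comparisons of levels were made within a day.

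Library totals ran from 10756242 to 51158036 counts at day 7 and from 48105347 to 92869315 at day 28. The lowest was non-diabetic replicate 4 of day 7, and the next of that day held 30812809. Heart muscle markers were present in every library, with 20 of them summing to 3169 to 42120 CPM (counts relative to a library's scaled total) at day 7 and 17190 to 94620 at day 28, beside the macrophage and fibroblast markers of a healing wound. One library of each day stood apart in its markers. Type 1 replicate 4 of day 7 had the lowest heart muscle sum of that day, 3169, the highest fat cell marker sum, 1205, and the highest B cell marker sum, 3907. Type 2 replicate 4 of day 28 had the lowest heart muscle sum of that day, 17190, and a B cell marker sum of 7259. In bulk tissue, fewer cells of a type and less RNA per cell cannot be told apart.

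Cells build cholesterol from acetyl-CoA through mevalonate, the isoprenoids, squalene and a long series of sterol intermediates. When sterols in the membrane of the endoplasmic reticulum run low, SCAP carries the precursors of the SREBP transcription factors to the Golgi, where they are cut and released to switch on the sterol genes, mainly through SREBP2, the product of Srebf2. SREBP1, the product of Srebf1, drives more of the fatty acid genes, responds to insulin in liver and fat, and shares that role with carbohydrate-sensing and oxysterol-sensing factors.

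The promoters of a few members that the results turn on are shown with the letters that SREBP factors and their partner NF-Y are known to bind. The sequences are those of RefSeq on GRCm38.p6 before the transcription start, shortened where an annotated transcript of the gene reaches into them, and are written on the gene's own strand. Capitals mark CCAAT, or ATTGG where it lies on the other strand, and TCACNCCAC, a form of the sterol response element. Hmgcs1 (chr13:119690101-119690350, plus strand) is shown because it was called in 4 of the 6 within-day comparisons, Mvk (chr5:114444019-114444268, plus strand) and Sc5d (chr9:42264301-42264550, minus strand) because they were called at day 28 in both diabetic groups, Hsd17b7 (chr1:169969242-169969455, minus strand) for its large differences at both days, and Acly (chr11:100528001-100528250, minus strand) as a called fatty acid enzyme for comparison.
Hmgcs1: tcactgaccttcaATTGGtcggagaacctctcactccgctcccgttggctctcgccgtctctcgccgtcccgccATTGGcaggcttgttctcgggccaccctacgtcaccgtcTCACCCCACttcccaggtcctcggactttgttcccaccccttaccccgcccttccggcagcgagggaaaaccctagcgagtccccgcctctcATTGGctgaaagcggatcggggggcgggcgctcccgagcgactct
Mvk: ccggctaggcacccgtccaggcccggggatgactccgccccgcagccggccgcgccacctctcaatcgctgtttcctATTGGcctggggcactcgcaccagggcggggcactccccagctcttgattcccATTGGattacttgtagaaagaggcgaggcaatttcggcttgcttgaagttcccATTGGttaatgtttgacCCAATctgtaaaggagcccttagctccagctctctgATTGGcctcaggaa
Hsd17b7: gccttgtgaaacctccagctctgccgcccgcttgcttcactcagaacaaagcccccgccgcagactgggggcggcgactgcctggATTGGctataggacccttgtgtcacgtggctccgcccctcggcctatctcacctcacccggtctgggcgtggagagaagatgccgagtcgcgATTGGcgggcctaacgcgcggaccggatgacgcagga
Sc5d: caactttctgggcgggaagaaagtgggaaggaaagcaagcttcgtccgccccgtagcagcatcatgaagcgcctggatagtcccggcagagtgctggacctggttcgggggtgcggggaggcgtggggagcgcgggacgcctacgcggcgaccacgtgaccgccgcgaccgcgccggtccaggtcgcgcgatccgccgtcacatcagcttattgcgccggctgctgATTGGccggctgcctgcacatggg
Acly: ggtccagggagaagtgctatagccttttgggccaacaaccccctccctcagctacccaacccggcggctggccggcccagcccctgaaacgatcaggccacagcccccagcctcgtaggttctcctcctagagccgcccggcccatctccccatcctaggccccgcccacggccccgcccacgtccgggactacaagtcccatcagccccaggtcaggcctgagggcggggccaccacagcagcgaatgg
RefSeq windows were matched for 23 of the 30 members. Fdps, Fdft1, Sqle, Stard4, Scd1, Scd2 and Fads1 had no window. In the whole 250 bases before a start, on either strand and in any window of a gene, CCAAT occurred in 19 of the 23, against 37.49% of the 27025 genes with a window. TCACNCCAC occurred in 1 member, Hmgcs1, against 1.22% of genes, and the E-box CACGTG in 4, against 6.86%. The 3 motifs were counted independently of each other, and the search was set after the values were seen. A match describes letters in a window and is not a measured binding site.

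The 30 genes covered a wide range of levels. Per kilobase of exon, so that genes can be compared, the median level of the day 7 non-diabetic libraries was highest for Scd2, a stearoyl-CoA desaturase, at 31.5 CPM per kilobase, followed by Acly at 20.1 and Fads1 at 18.5, and lowest for Idi1 at 0.802. In the day 28 non-diabetic libraries Acly stood first at 14.9, with Scd1 at 14.1 and Scd2 at 12.6, and Lss last at 0.607. Part of the sequence of 13 members is shared with another annotated gene, which can move reads between them: 47.4% of the 75-base stretches of Acaca, 29.1% of Idi1, 25.4% of Fdft1, 12.2% of Hmgcs1, 9.2% of Fdps, 7.0% of Acss2 and at most 3.2% of the others. For Hmgcs1 and Fdft1 the partner lies mainly on the other strand, Ctsb in the case of Fdft1, and the strand setting of the authors' counting is not given in the sources used here, so their values and those of Idi1 and Acaca are the less certain ones.

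At day 7, 6 of the 17 mevalonate and sterol enzymes were higher in type 1 diabetic infarcts than in non-diabetic ones, among them Hmgcs1, Sqle and Hsd17b7. Of the 30 members 8 rose and none fell (edgeR's quasi-likelihood test, Benjamini-Hochberg adjusted p at or under 0.05), where 11.1% of the 18165 genes tested rose and 11.4% fell. At an unadjusted p under 0.05, 12 members were higher and 4 lower, and DESeq2 called 8 higher and 1 lower. Of all genes tested, 3138 were higher and 3308 lower at that unadjusted p, and DESeq2 called 2342 higher and 2337 lower. The median log2 fold change was 0.18 over the members and -0.01 over all genes tested. The 17 mevalonate and sterol enzymes had a median of 0.27, with 15 fitted values above 0. Of the 9 fatty acid enzymes 1 rose, and their median was -0.07.

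With type 2 diabetes at day 7 none of the mevalonate and sterol enzymes was called. None of the 30 members rose and 1, Fads1, fell, where 3.85% of all genes rose and 3.5% fell, 7.35% in either direction. Unadjusted p-values under 0.05 numbered 0 on the higher and 8 on the lower side, and DESeq2 called 0 and 1. For all genes the numbers were 1950 and 2198, and 995 and 920 by DESeq2. Of the 17 mevalonate and sterol enzymes 16 had a fitted value below 0, with a median log2 fold change of -0.19, where the median of all genes was -0.03.

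The type 1 and type 2 libraries were then compared directly. Here 8 members were higher in type 1 than in type 2 and none lower, all 8 of them mevalonate or sterol enzymes, where 1.51% of all genes tested were higher and 1.19% lower, 2.71% in either direction. At an unadjusted p under 0.05 the counts were 17 and 0, and DESeq2 called 11 and 0. Among all genes these counts were 1853 and 1690, and 565 and 484 by DESeq2. The median was 0.41 over the 17 mevalonate and sterol enzymes, 0.11 over the 9 fatty acid enzymes, and 0.00 over all genes. All 3 comparisons of a day share libraries, so they are not independent of each other.

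At day 28 the called members in type 1 lay on the lower side. None of the 30 members rose and 4 fell, where 2.6% of the 18901 genes tested rose and 1.41% fell, 4.02% in either direction. Without adjustment 0 were higher and 14 lower at a p under 0.05, and DESeq2 called 0 higher and 7 lower. The same thresholds gave 2020 higher and 1691 lower of all genes, and 717 and 505 by DESeq2. All 17 mevalonate and sterol enzymes had a fitted value below 0, with a median of -0.19, and 3 of them fell, Hmgcs1, Mvk and Sc5d. Of the 9 fatty acid enzymes 1 fell, Scd2, and their median was -0.44.

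In type 2 at day 28, 6 members fell and none rose, where 3.5% of all genes fell and 7.21% rose. At an unadjusted p under 0.05, 12 were lower and 1 higher, and DESeq2 called 6 lower and 0 higher. All genes gave 1959 lower and 2830 higher, and 872 and 1647 by DESeq2. The 6 members called by edgeR were all mevalonate or sterol enzymes, whose 17 members had a median of -0.20. Type 1 was lower than type 2 for 2 members, Scd1 and Scd2, and higher for none, where 2.03% of all genes were lower and 1.19% higher. For the 17 mevalonate and sterol enzymes no difference between the 2 forms of diabetes was called at day 28, and their median was 0.01. Without adjustment 4 of the 30 members were lower in type 1 than in type 2 at a p under 0.05 and 0 higher, and DESeq2 called 3 and 0. Of all genes 1837 were lower and 1345 higher at that p, and DESeq2 called 701 and 404.

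**Figure D1:**
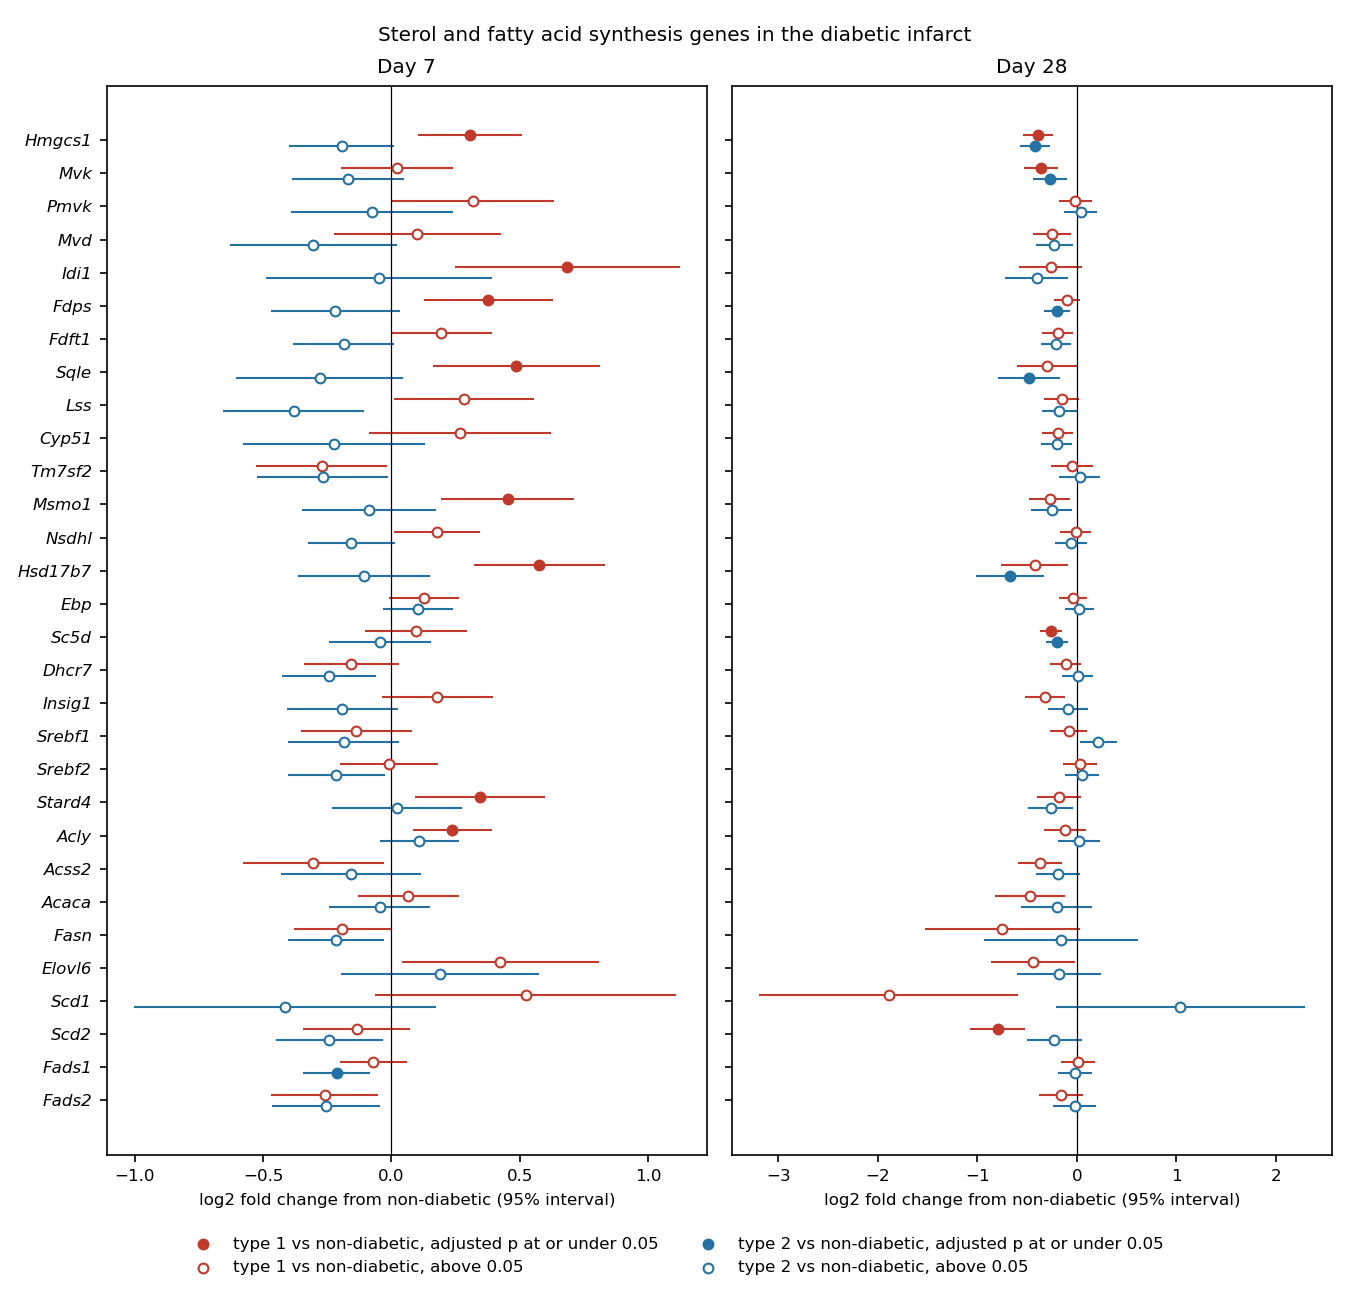
Log2 fold change of each of the 30 genes from the non-diabetic libraries at day 7 (left) and day 28 (right), for type 1 (red) and type 2 (blue). Bars are 95% intervals derived from edgeR's F statistic. Filled points have an adjusted p at or under 0.05 in edgeR, and the 2 panels have different scales. At day 7 the 8 filled type 1 points lie above 0 and the 1 filled type 2 point below it, and at day 28 the 4 filled type 1 and 6 filled type 2 points lie below 0.

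In the mevalonate pathway, Hmgcs1 makes HMG-CoA, the substrate of the step that is the main point of control. Its lowest, median and highest levels at day 7 were 34.5, 41.0 and 54.3 CPM in the non-diabetic libraries, 41.4, 58.0 and 61.8 CPM with type 1 and 33.3, 38.1 and 45.5 CPM with type 2. The groups overlapped, with 5 type 1 libraries above every non-diabetic one. It was 1.24-fold higher with type 1 than without diabetes (log2 0.31, SE 0.10, adjusted p 0.027 in edgeR) and 1.41-fold higher than with type 2 (log2 0.50, SE 0.10, adjusted p 0.0099). The first call was lost in 3 of the 16 fits that left out 1 library, the second in 0.

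At day 28 the type 1 and non-diabetic libraries of Hmgcs1 did not overlap. The levels were 34.7, 36.8 and 51.8 CPM without diabetes, 26.2, 29.4 and 34.1 CPM with type 1 and 22.5, 28.8 and 35.3 CPM with type 2. All 10 libraries of each diabetic group lay below the non-diabetic mean. The fold changes were 0.763 with type 1 (log2 -0.39, SE 0.07, adjusted p 0.0023 in edgeR) and 0.747 with type 2 (log2 -0.42, SE 0.07, adjusted p 0.00026).

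Mvk, mevalonate kinase, was called at day 28 and not at day 7. The day 7 medians were 11.3, 11.2 and 9.93 CPM in the non-diabetic, type 1 and type 2 libraries. At day 28 the lowest, median and highest levels were 6.78, 9.17 and 10.5 CPM without diabetes, 5.85, 7.06 and 7.91 CPM with type 1 and 6.18, 7.18 and 9.58 CPM with type 2. All 10 type 1 and 9 of 10 type 2 libraries lay below the non-diabetic median, and the groups overlapped. The fold change was 0.780 with type 1 (log2 -0.36, SE 0.08, adjusted p 0.011 in edgeR) and 0.831 with type 2 (log2 -0.27, SE 0.08, adjusted p 0.034). The call with type 2 was lost in 10 of the 21 fits that left out 1 library.

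Idi1 interconverts the isoprenoid units IPP and DMAPP. At day 7 its levels were 1.95, 2.81 and 4.98 CPM without diabetes, 3.28, 4.78 and 7.49 CPM with type 1 and 2.22, 2.56 and 4.75 CPM with type 2. The lowest type 1 library lay above both other medians, and the ranges overlapped. The rise with type 1 was 1.61-fold (log2 0.69, SE 0.21, adjusted p 0.022 in edgeR), the largest among the members that rose, and the 1.66-fold difference from type 2 did not pass the test (log2 0.73, SE 0.21, adjusted p 0.058). The call with type 1 was lost in 1 of the 16 fits that left out 1 library. The day 28 medians of Idi1 were 3.01, 2.43 and 2.38 CPM, with no call.

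Fdps makes farnesyl diphosphate, from which squalene and the lipid anchors of small GTPases derive. The day 7 levels were 16.7, 19.9 and 28.7 CPM without diabetes, 21.6, 24.6 and 37.6 CPM with type 1 and 15.2, 17.9 and 22.3 CPM with type 2. All 8 type 1 libraries exceeded the mean of either other group, though the ranges overlapped. It rose 1.30-fold with type 1 (log2 0.38, SE 0.12, adjusted p 0.026 in edgeR) and was 1.51-fold higher than with type 2 (log2 0.60, SE 0.12, adjusted p 0.011). The first call was lost in 5 of the 16 fits that left out 1 library, the second in 0. By day 28 Fdps was 0.871-fold with type 2 (log2 -0.20, SE 0.06, adjusted p 0.041), a call lost in 11 of the 21 fits that left out 1 library. The remaining mevalonate enzymes, Pmvk and Mvd, were called in no comparison.

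**Figure D2:**
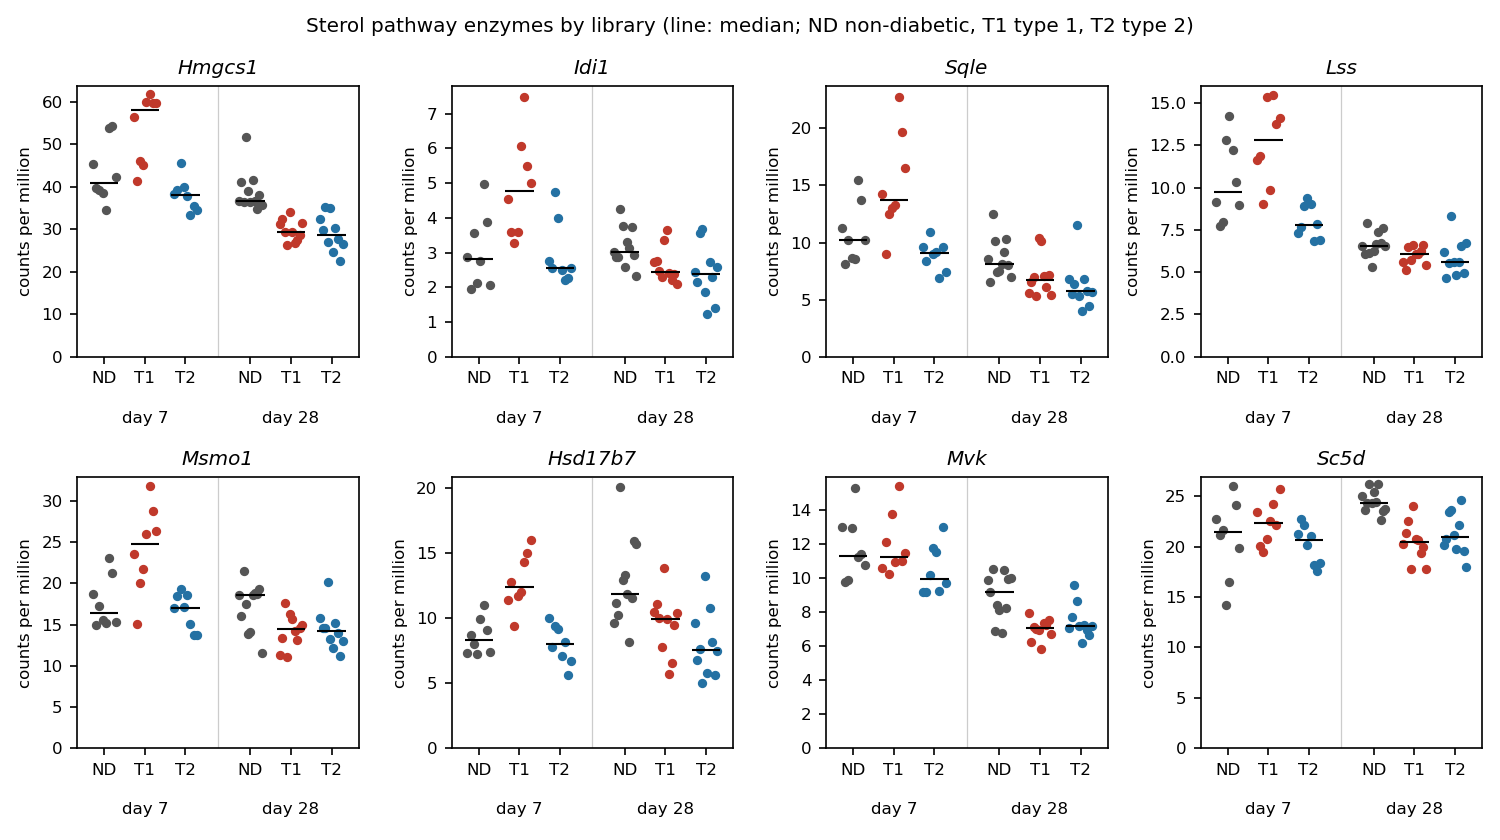
Level in CPM of 8 mevalonate and sterol enzymes in every library, by day and group (ND non-diabetic, T1 type 1, T2 type 2), with a line at the group median; each axis starts at 0. At day 7 the type 1 median of Hmgcs1, Idi1, Sqle, Lss, Msmo1 and Hsd17b7 lies above the other 2, and at day 28 the non-diabetic median is the highest of the 3 for all 8 genes.

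In the sterol branch, Fdft1 is squalene synthase, the first committed step. Its day 7 levels were 14.3, 16.7 and 22.1 CPM without diabetes, 16.6, 19.8 and 25.9 CPM with type 1 and 13.4, 15.9 and 17.1 CPM with type 2. Type 1 overlapped the highest type 2 libraries only at its lower end. It was 1.30-fold higher with type 1 than with type 2 (log2 0.38, SE 0.10, adjusted p 0.033 in edgeR), a call lost in 7 of the 16 fits that left out 1 library. Medians of 20.5, 18.5 and 18.0 CPM in the non-diabetic, type 1 and type 2 libraries of day 28 came with no call.

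Sqle, squalene epoxidase, is a second point of control of the pathway. At day 7 its levels were 8.08, 10.2 and 15.5 CPM without diabetes, 9.02, 13.7 and 22.8 CPM with type 1 and 6.93, 9.12 and 10.9 CPM with type 2. Type 1 replicates 6, 7 and 8 lay above every non-diabetic library, and 1 type 1 library lay within the type 2 range. It was 1.40-fold higher with type 1 than without diabetes (log2 0.49, SE 0.16, adjusted p 0.028 in edgeR) and 1.70-fold higher than with type 2 (log2 0.77, SE 0.16, adjusted p 0.012). The first call was lost in 4 of the 16 fits that left out 1 library, the second in 0. The day 28 levels were 6.52, 8.09 and 12.5 CPM without diabetes, 5.29, 6.76 and 10.4 CPM with type 1 and 3.99, 5.71 and 11.5 CPM with type 2. The highest type 2 library was replicate 4, which stood apart, and the next lay at 6.81 CPM. The type 2 fold change was 0.718 (log2 -0.48, SE 0.15, adjusted p 0.040), a call lost in 11 of the 21 fits that left out 1 library, and type 1 was not called (log2 -0.29, SE 0.15).

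Lss, lanosterol synthase, closes the first sterol ring system. The day 7 levels were 7.71, 9.74 and 14.2 CPM without diabetes, 9.04, 12.8 and 15.5 CPM with type 1 and 6.82, 7.76 and 9.40 CPM with type 2. Only the lowest type 1 library fell within the type 2 range, and the non-diabetic libraries overlapped both. Type 1 exceeded type 2 by 1.58-fold (log2 0.66, SE 0.13, adjusted p 0.011 in edgeR), while the distance of each from the non-diabetic group was not called (log2 0.28, SE 0.13, and log2 -0.38, SE 0.13). The day 28 medians were 6.55, 6.06 and 5.597 CPM, with no call.

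Msmo1 removes the methyl groups at carbon 4 together with Nsdhl and Hsd17b7. For Msmo1 the day 7 levels were 14.9, 16.4 and 23.1 CPM without diabetes, 15.0, 24.8 and 31.8 CPM with type 1 and 13.7, 17.1 and 19.4 CPM with type 2. Type 1 replicate 2 was low and the other 7 lay above the highest type 2 library. It was 1.37-fold higher with type 1 than without diabetes (log2 0.45, SE 0.13, adjusted p 0.012 in edgeR), kept without any single library, and 1.45-fold higher than with type 2 (log2 0.54, SE 0.13, adjusted p 0.022). The call against type 2 was lost in 3 of the 16 fits that left out 1 library. Later, at day 28, the medians were 18.6, 14.4 and 14.3 CPM, with no call.

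Nsdhl had day 7 levels of 11.0, 13.5 and 16.7 CPM without diabetes, 12.8, 15.1 and 17.9 CPM with type 1 and 10.7, 12.3 and 13.5 CPM with type 2. The 3 ranges overlapped, with type 1 uppermost. Type 1 exceeded type 2 by 1.26-fold (log2 0.33, SE 0.08, adjusted p 0.029 in edgeR), a call lost in 7 of the 16 fits that left out 1 library.

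Hsd17b7 had the smallest adjusted p of the 30 in both type 1 comparisons of day 7. Its levels were 7.22, 8.36 and 11.0 CPM without diabetes, 9.38, 12.4 and 16.0 CPM with type 1 and 5.64, 8.00 and 10.1 CPM with type 2. Only type 1 replicate 3 lay within the ranges of the other groups. The difference was 1.49-fold from the non-diabetic group (log2 0.58, SE 0.12, adjusted p 0.0021 in edgeR) and 1.60-fold from type 2 (log2 0.68, SE 0.12, adjusted p 0.0054), and neither call was lost without any single library. Its day 28 levels were 8.18, 11.9 and 20.1 CPM without diabetes, 5.72, 9.98 and 13.9 CPM with type 1 and 5.04, 7.54 and 13.2 CPM with type 2. The ranges overlapped widely, with the type 2 median below the lowest non-diabetic library. It fell with type 2 to 0.627-fold (log2 -0.67, SE 0.17, adjusted p 0.0082), also without any single library, and was not called with type 1 (log2 -0.42, SE 0.17, adjusted p 0.15).

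Sc5d introduces the double bond at carbon 5. At day 7 its medians were 21.4, 22.4 and 20.7 CPM, with no call. The day 28 levels were 22.7, 24.3 and 26.3 CPM without diabetes, 17.8, 20.5 and 24.03 CPM with type 1 and 18.0, 20.99 and 24.7 CPM with type 2. The non-diabetic libraries were close together, and 9 of 10 type 1 and 7 of 10 type 2 libraries lay below their lowest value. The fold change was 0.834 with type 1 (log2 -0.26, SE 0.05, adjusted p 0.0047 in edgeR) and 0.871 with type 2 (log2 -0.20, SE 0.05, adjusted p 0.014), small but held without any single library. The other members of the branch, Cyp51, Tm7sf2, Ebp and Dhcr7, were called in no comparison, with log2 values between -0.27 and 0.49 in the 6 within-day comparisons.

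Averaged per library, the 17 mevalonate and sterol enzymes had a mean log2 CPM of 3.55 to 4.04 in the day 7 non-diabetic libraries, 3.77 to 4.32 with type 1 and 3.44 to 3.77 with type 2, so that the lowest type 1 library and the highest type 2 library met at 3.77. The day 28 ranges were 3.46 to 3.73, 3.28 to 3.56 and 3.11 to 3.62, and 8 of 10 libraries in each diabetic group lay below the lowest non-diabetic one.

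Other markers moved with these groups. At day 7, 9 of 10 proliferation genes and 8 of 13 macrophage genes rose with type 1, 4 and 5 with type 2, and 8 of 10 fibroblast genes fell with type 1, while of the 20 heart muscle genes 1 was called lower with type 1 and none with type 2. Called or not, 19 of the 20 heart muscle genes had a fitted value below 0 with type 1 (median log2 -0.66). With type 2 it was 17 of 20 (median log2 -0.22). The mean log2 CPM of the proliferation list was 4.31 to 5.30 without diabetes, 4.90 to 5.74 with type 1 and 4.94 to 5.54 with type 2, its summed level 232.6 to 501.2, 365.9 to 658.6 and 379.5 to 586.8 CPM, and none of its genes was at 0 in any library. The macrophage list had a mean of 6.97 to 7.73, 7.67 to 8.19 and 7.73 to 8.08, which nearly separated the diabetic libraries from the others. Its summed level overlapped more, at 4055 to 6040, 5529 to 7008 and 5601 to 7018 CPM, and none of its genes was at 0. The fibroblast list summed to 49330 to 63610, 25970 to 53090 and 27600 to 49410 CPM. With the proliferation mean as a covariate in edgeR, chosen after the data were seen, no member was higher with type 1, and 2 were at an unadjusted p under 0.05. Of the 18165 genes tested, 367 were higher in that fit, against 2016 with no covariate, and 1746 at an unadjusted p under 0.05. With the macrophage mean, likewise added, 0 members were higher, 1 at an unadjusted p under 0.05, and none of all genes tested was called, where 774 were higher and 1327 lower at an unadjusted p under 0.05. The count of members was 1 of 30 with the heart muscle mean as a covariate, where 1576 of all genes were higher. It was 3 without non-diabetic replicate 2 or without type 1 replicate 6, where 1603 and 1720 of all genes were higher.

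Between type 1 and type 2 at day 7, no proliferation gene and 2 of 13 macrophage genes, Mrc1 and Msr1, were called, both higher in type 1. Called or not, all 10 proliferation genes had a fitted value above 0, with a median log2 of 0.14. Of the macrophage genes 6 lay above 0 and 7 below, with a median of 0.0. None of the 20 heart muscle genes was called, with 18 fitted values below 0 and a median log2 of -0.53. With the proliferation, macrophage and heart muscle covariates 9, 8 and 7 members were higher in type 1. Of the 18165 genes tested, 374, 231 and 362 were higher in those fits, against 275 with no covariate. The count of members was 9 without type 1 replicate 4, the library that stood apart, with 313 of all genes higher. It was 5 without type 1 replicate 6, type 1 replicate 8 or type 2 replicate 6, with 85, 105 and 85 of all genes higher. Library names start with a number whose meaning is not given in the sources used here and that several libraries of a group can have in common. When such libraries were summed, leaving 6, 6 and 4 sums, edgeR called none of all genes tested and 13 members were higher in type 1 at an unadjusted p under 0.05. At that p, 994 of the 18970 genes tested were higher. By the same sums, 2 members rose with type 1 against the non-diabetic group, where 702 of the 18970 genes rose.

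**Figure D3:**
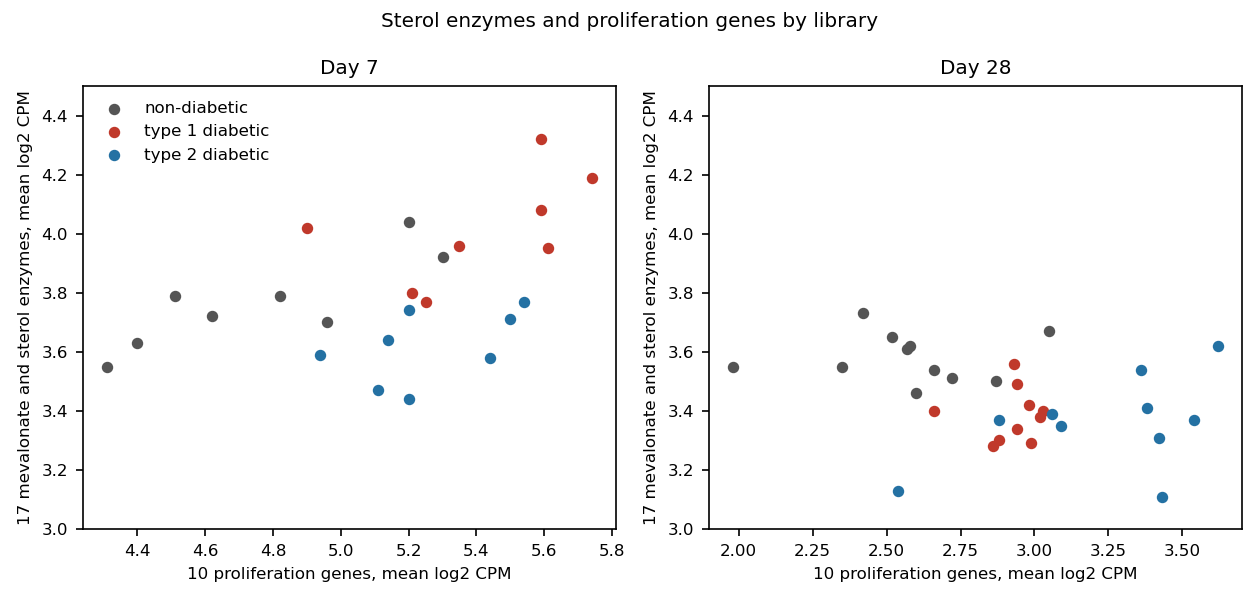
Mean log2 CPM of the 17 mevalonate and sterol enzymes (vertical axis) against that of 10 proliferation genes (horizontal axis), 1 point a library, at day 7 (left) and day 28 (right). At day 7 type 1 (red, 3.77 to 4.32) lies above type 2 (blue, 3.44 to 3.77) over a shared range of the proliferation mean, and at day 28 most diabetic libraries lie below the non-diabetic ones (grey, 3.46 to 3.73).

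Of the 10 proliferation genes 2 rose at day 28 with type 1 and 8 with type 2. The proliferation mean was 1.98 to 3.05 without diabetes, 2.66 to 3.03 with type 1 and 2.54 to 3.62 with type 2, the summed level 58.69 to 103.6, 90.37 to 106.8 and 78.91 to 155.5 CPM, with no gene of the list at 0. Of the 13 macrophage genes 1 rose with type 1 and 5 with type 2, and of the 10 fibroblast genes 3 and 1, the fibroblast list summing to 7076 to 12060, 8883 to 14230 and 7177 to 15420 CPM. Of the 20 heart muscle genes 1 rose with type 1 and 1 fell with type 2, with 17 and 18 fitted values below 0. With the proliferation covariate 5 members fell with type 1 and 3 with type 2, with the macrophage covariate 7 and 10, and with the heart muscle covariate 9 and 13. Of the 18901 genes tested, 215 and 211 fell in the fits with the proliferation covariate, 421 and 587 with the macrophage and 798 and 735 with the heart muscle covariate, against 267 and 662 with none. Without type 2 replicate 4, 10 members fell with type 2, the 6 given above being the count with it, and without non-diabetic replicate 3 or type 2 replicate 6, 9 or 10 the count was 3. With libraries summed by the first number of their name, to 4, 4 and 5 sums, edgeR called 6 of all genes and no member with type 1. With type 2 it called 427 of all genes, 114 of them lower, and 2 members, both lower.

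Among the regulators, the genes of the SREBP factors themselves passed no test. Srebf2 had levels of 67.0, 72.9 and 99.96 CPM at day 7 without diabetes, 60.6, 74.6 and 93.4 CPM with type 1 and 55.6, 67.7 and 73.7 CPM with type 2. The groups lay over each other, with type 2 lowest. Its log2 fold change with type 1 was -0.01 (SE 0.09), with a 95% interval of -0.20 to 0.18. At day 28 its medians were 66.3, 70.6 and 67.9 CPM, and type 2 replicate 4 was highest at 110.4 CPM.

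Srebf1 had day 7 medians of 56.1, 51.2 and 54.2 CPM. Its day 28 levels were 31.1, 48.8 and 64.4 CPM without diabetes, 37.7, 48.6 and 55.4 CPM with type 1 and 49.6, 54.6 and 74.3 CPM with type 2. Type 2 lay uppermost with wide overlap, and the difference between type 1 and type 2 did not pass the test (log2 -0.30, SE 0.09, adjusted p 0.070 in edgeR).

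Insig1 holds the SCAP and SREBP complex in the endoplasmic reticulum and is itself a target of SREBP. It had levels of 25.6, 29.2 and 31.3 CPM at day 7 without diabetes, 20.5, 33.9 and 40.8 CPM with type 1 and 20.9, 25.5 and 29.1 CPM with type 2. Type 1 spread over the whole range, and no day 7 comparison was called (log2 0.37, SE 0.10, adjusted p 0.054 against type 2 in edgeR). At day 28 the medians were 30.99, 22.9 and 27.6 CPM, with a type 1 log2 fold change of -0.32 (SE 0.10, adjusted p 0.056).

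Stard4 carries cholesterol between membranes and is an SREBP target too. Its day 7 levels were 13.1, 22.5 and 30.5 CPM without diabetes, 23, 29.3 and 35.7 CPM with type 1 and 19.97, 23.3 and 26.9 CPM with type 2. It rose 1.27-fold with type 1 (log2 0.34, SE 0.12, adjusted p 0.045 in edgeR), a call lost in 10 of the 16 fits that left out 1 library. The lowest type 1 library lay above the non-diabetic median, and the ranges overlapped. The lowest non-diabetic library was replicate 4, which had the smallest total count of that day.

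In fatty acid synthesis, Acly cuts citrate to give cytosolic acetyl-CoA for both pathways. Its day 7 levels were 89.3, 106.2 and 131.7 CPM without diabetes, 115.7, 123.4 and 144.7 CPM with type 1 and 104.1, 117.9 and 132.9 CPM with type 2. Type 1 replicates 4, 6 and 7 lay above the non-diabetic range and the other type 1 libraries in its upper part. It rose 1.18-fold with type 1 (log2 0.24, SE 0.07, adjusted p 0.025 in edgeR), a call lost in 1 of the 16 fits that left out 1 library. Day 28 medians were 78.9, 76.4 and 80.4 CPM, with no call.

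Fasn, fatty acid synthase, was called in no comparison. At day 7 its levels were 60.9, 82.9 and 102.1 CPM without diabetes, 61.8, 68.0 and 92.1 CPM with type 1 and 63.2, 71.7 and 77.3 CPM with type 2. At day 28 they were 40.8, 72.3 and 392.8 CPM, 44.5, 60.2 and 155.1 CPM, and 44.8, 58.6 and 297.2 CPM in the same order. Single libraries of each day 28 group reached several times the median, and the log2 fold change with type 1 was -0.75 with an SE of 0.38 (adjusted p 0.28). Acss2, which activates acetate, and Acaca, acetyl-CoA carboxylase, were not called either, with day 28 type 1 log2 values of -0.37 and -0.47.

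The desaturases place the first or further double bonds in fatty acids. Fads1, the delta-5 desaturase of long polyunsaturated chains, had day 7 levels of 74.4, 89.1 and 99.7 CPM without diabetes, 71.0, 83.9 and 94.7 CPM with type 1 and 69.7, 75.6 and 81.8 CPM with type 2. Type 2 replicates 1, 6 and 8 lay below the non-diabetic range and the others within it. It fell with type 2 to 0.863-fold (log2 -0.21, SE 0.06, adjusted p 0.038 in edgeR), a call lost in 11 of the 16 fits that left out 1 library. Fads2 and the elongase Elovl6 were not called in any within-day comparison.

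Scd2, the stearoyl-CoA desaturase of brain and many other tissues, had the smallest adjusted p of the members at day 28 in type 1. Its day 28 levels were 51.9, 68.7 and 89.8 CPM without diabetes, 28.4, 38.1 and 58.6 CPM with type 1 and 38.8, 56.3 and 88.2 CPM with type 2. Type 1 libraries were the low ones, 9 of 10 of them below every non-diabetic library. It was 0.576-fold with type 1 compared with no diabetes (log2 -0.79, SE 0.13, adjusted p 0.0010 in edgeR) and 0.673-fold compared with type 2 (log2 -0.57, SE 0.14, adjusted p 0.016). Neither call was lost without any single library, and the first held with every covariate. The second was lost with the proliferation covariate, and both were lost with libraries summed by the first number of their name. At day 7 its medians were 172.4, 158.4 and 158.1 CPM, with no call.

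Scd1, the stearoyl-CoA desaturase of fat and liver, varied most. At day 28 its levels were 38.6, 69.2 and 572.9 CPM without diabetes, 26.99, 34.6 and 61.2 CPM with type 1 and 29.6, 46.6 and 1327 CPM with type 2. No type 1 library exceeded the non-diabetic median, whereas single libraries of the other groups were far above theirs. The fitted fold was 0.131 in type 1 against type 2 (log2 -2.93, SE 0.67, adjusted p 0.011 in edgeR) and 0.270 against the non-diabetic group, the latter not called (log2 -1.89, SE 0.64, adjusted p 0.088). At day 7 the highest type 1 library, replicate 4, held 204.4 CPM, the next 52.2 CPM, and no comparison was called.

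The highest libraries of Scd1 and Fasn in each group were among those with most fat cell marker. At day 28 the 10 fat cell markers summed to 192.3 to 1223 CPM in the non-diabetic libraries, 170.5 to 1105 with type 1 and 220.6 to 857.1 with type 2, none of the 10 was called between groups, and Adipoq, which defines fat cells, was at 0 in 0 of 11, 2 of 10 and 3 of 10 libraries. In each group 3 libraries held at least 20 CPM of Adipoq, a level chosen after the values were seen. Their Adipoq levels were 26.1, 51.4 and 68.9 CPM without diabetes, 21.8, 27.9 and 49.6 CPM with type 1 and 31.7, 34.4 and 45.8 CPM with type 2. Scd1 in them was 208.8, 214.4 and 572.9 CPM without diabetes, 43.3, 43.7 and 61.2 CPM with type 1, and 1327, 386.1 and 870.1 CPM with type 2, each in the order of the Adipoq levels, while the remaining libraries reached at most 124.9, 37.6 and 84.4 CPM. The type 1 libraries with fat cell markers were thus low in Scd1, and their Acly, at 67.8 to 79.0 CPM, lay below that of the others, at 95.6 to 116.5 and 97.8 to 115.0 CPM. Fasn did not separate in the same way, with 60.4, 63.8 and 155.1 CPM in the type 1 libraries and 119.6 to 392.8 CPM in the others.

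With the mean of the fat cell list as a covariate, Scd1 was lower in type 1 than in type 2 by log2 -1.78 (adjusted p 0.023 in edgeR). Without type 2 replicate 8 the value was -2.20 (adjusted p 0.040), and the call was lost with the proliferation covariate and with libraries summed by the first number of their name (log2 -2.39, adjusted p 0.19).

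**Figure D4:**
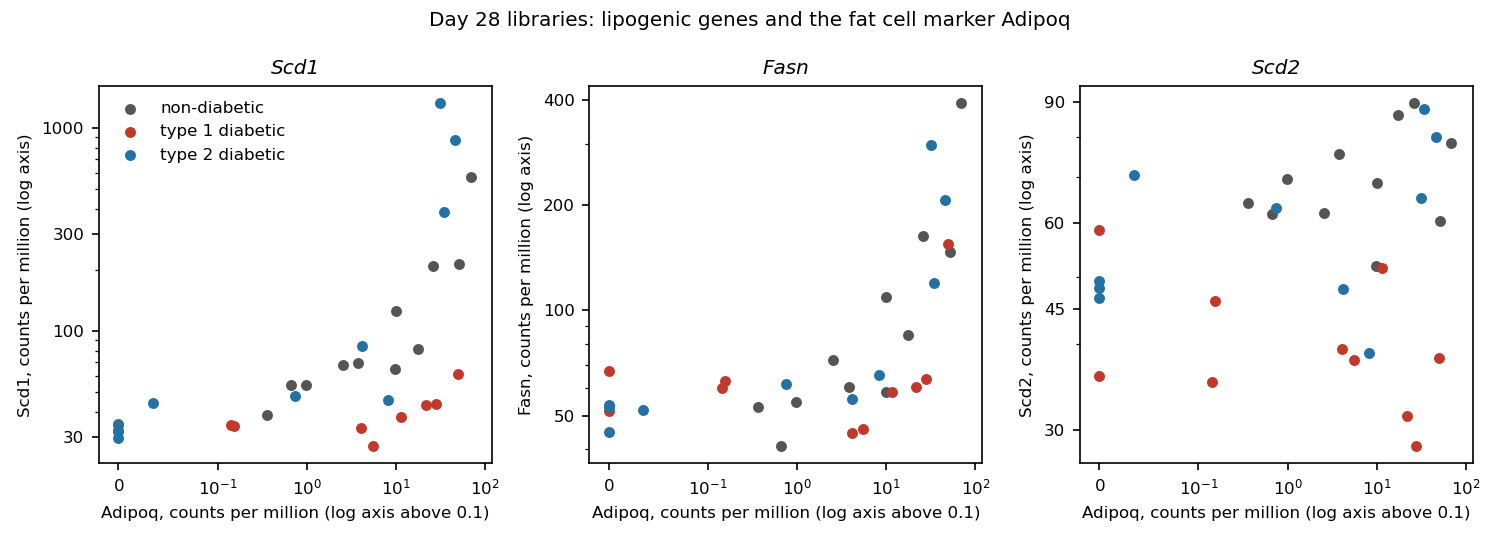
Level in CPM of Scd1, Fasn and Scd2 (vertical axes, logarithmic) against the fat cell marker Adipoq (horizontal axis, logarithmic above 0.1) in the 31 libraries of day 28, 1 point a library. The non-diabetic (grey) and type 2 (blue) libraries with at least 20 CPM of Adipoq reach 208.8 to 1327 CPM of Scd1 and the type 1 libraries (red) 43.3 to 61.2 CPM.

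The change of the type 1 effect between the days was tested as an interaction over all 6 groups. For 15 of the 30 members the type 1 effect was lower at day 28 than at day 7 and for none higher, where 5.5% of the 20421 genes tested were lower and 6.98% higher. At an unadjusted p under 0.05 the counts were 20 and 0, and DESeq2 called 16 and 0. For all genes they were 2552 lower and 2775 higher, and 1308 and 1633 by DESeq2. The median difference was -0.42 over the members and 0 over all genes. The 15 were 10 mevalonate and sterol enzymes, Insig1, Stard4, Scd1, Scd2 and Elovl6.

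Among the 10 enzymes the difference was log2 -1.01 for Hsd17b7 (SE 0.22, adjusted p 0.0015 in edgeR), -0.97 for Idi1 (SE 0.26, adjusted p 0.0099), -0.79 for Sqle (SE 0.23, adjusted p 0.014), -0.74 for Msmo1 (SE 0.16, adjusted p 0.0015) and -0.71 for Hmgcs1 (SE 0.13, adjusted p 0.00010). Each of these 5 had a positive fitted value at day 7 and a negative one at day 28. All 5 were called higher with type 1 at day 7, but only Hmgcs1 was called lower at day 28. The other 5, Fdps, Lss, Fdft1, Mvk and Sc5d, differed by -0.49 to -0.37. Among the fatty acid genes the difference was -2.39 for Scd1 (SE 0.77, adjusted p 0.031), -0.88 for Elovl6 (SE 0.29, adjusted p 0.040) and -0.67 for Scd2 (SE 0.18, adjusted p 0.0083). Without the day 7 type 1 replicate 4, the library with fat cell and B cell markers, Scd1 was no longer called (log2 -1.84, adjusted p 0.096), nor was Lss, and 14 members were lower in all. No other library was left out for this comparison. The number of members lower was 9 with the proliferation or the macrophage covariate, where 826 and 1517 of all genes were lower. It was 2, Hsd17b7 and Hmgcs1, with libraries summed by the first number of their name, where 124 of all genes were lower.

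**Figure D5:**
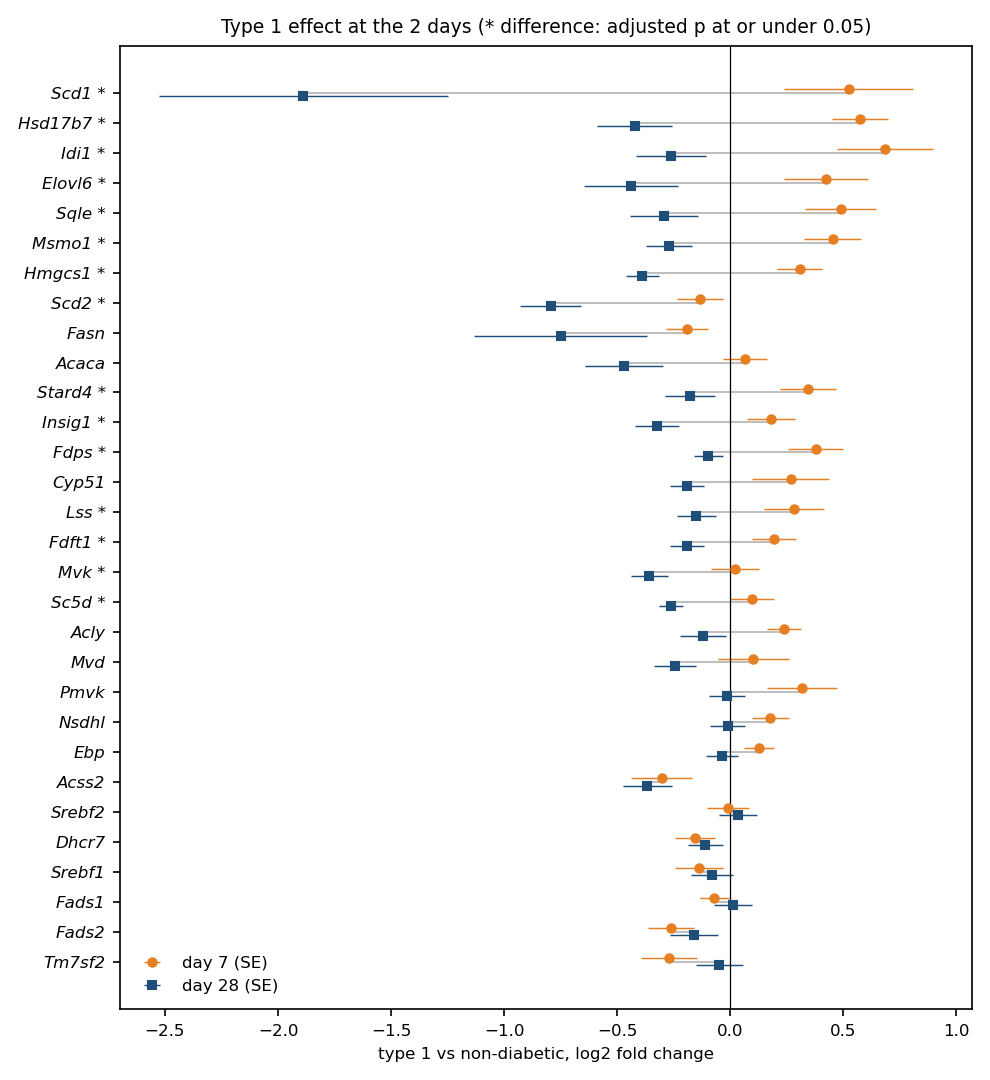
Log2 fold change of type 1 from non-diabetic libraries at day 7 (orange circles) and day 28 (blue squares) for the 30 genes, with the SE of each fit, ordered by the difference between the days; a star marks the 15 genes whose difference had an adjusted p at or under 0.05. Hsd17b7, Idi1, Sqle, Msmo1 and Hmgcs1 lie right of 0 at day 7 and left of 0 at day 28, where only Hmgcs1 of these was called.

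For type 2 no change of the effect between the days was detected among the members. None of the 30 members was called by edgeR in either direction, where 1.08% of the 20421 genes were higher and 0.426% lower, and DESeq2 called none. DESeq2 called 463 of all genes higher and 151 lower. At an unadjusted p under 0.05, 1 member was higher and 2 were lower, where 1787 and 1458 of all genes were. The 3 with the smallest p were Srebf1, with a log2 difference of 0.38 (SE 0.14, adjusted p 0.15), Hsd17b7, with -0.60 (SE 0.22, adjusted p 0.16), and Hmgcs1, with -0.26 (SE 0.13, adjusted p 0.31).

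Another 37 genes of the pathways, in 3 lists that hold no member, were read in the same fits. Against the non-diabetic group, 3 rose and 5 fell with type 1 at day 7, 0 rose and 3 fell with type 2, and at day 28 the counts were 3 and 1 with type 1 and 1 and 0 with type 2. Of all genes tested, 11.1% rose and 11.4% fell with type 1 at day 7, 3.85% and 3.5% with type 2, and at day 28 2.6% and 1.41% with type 1 and 7.21% and 3.5% with type 2. Nus1 and Dhdds, which together make the long isoprenoid of dolichol, had log2 values of 0.31 and -0.24 with type 1 at day 7, where the first rose and the other fell. Cyb5r3, an electron donor to sterol and fatty acid enzymes, fell with type 2 at day 7 (log2 -0.31) and rose with type 1 at day 28 (log2 0.29), where Npc1, which exports cholesterol from lysosomes, rose too (log2 0.21). Acat2, which condenses acetyl-CoA at the entry to the pathway, was higher in type 1 than in type 2 at day 7 by log2 0.42 (SE 0.11, adjusted p 0.031 in edgeR). Its levels were 6.88 to 10.6 CPM with type 1 and 5.37 to 7.56 CPM with type 2.

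Of the SREBP machinery, Scap, the escort of the SREBP factors, fell with type 2 at day 7 (log2 -0.29, SE 0.09, adjusted p 0.044 in edgeR) and rose with type 1 at day 28 (log2 0.22, SE 0.06, adjusted p 0.030). Its effect was higher at day 28 than at day 7 in both forms of diabetes, by log2 0.39 each (SE 0.10 each, adjusted p 0.0056 with type 1 and 0.030 with type 2). Mbtps1, the site-1 protease, fell with type 1 at day 7 by log2 -0.22, and Erlin1, which takes part in sterol-regulated degradation, rose by 0.26 there and by 0.21 with type 2 at day 28. In the fatty acid list, Hsd17b12, a ketoacyl-CoA reductase of chain elongation, rose with type 1 at day 7 (log2 0.43, SE 0.09, adjusted p 0.0015 in edgeR). In the same comparison Mlxipl, the carbohydrate-sensing factor ChREBP, Lpin1, a phosphatidate phosphatase, and Tecr, a reductase of chain elongation, fell (log2 -1.21, -0.67 and -0.40). Mid1ip1, an activator of acetyl-CoA carboxylase, fell with type 1 at day 28 (log2 -0.42, SE 0.09, adjusted p 0.0054).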

How the data were processed

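RNA was extracted from infarct tissue with the PureLink RNA Mini Kit and libraries were made with a TruSeq Stranded mRNA kit, per the labels' protocols. The authors deposited 1 table of raw read counts per gene for each day, and the submitters' processing notes name the build mm39 and DESeq2. Each of the aligner, the counting tool, the annotation and the strand setting is not given in the sources used here. Among counts of 1 to 49, 76.4% at day 7 and 75.2% at day 28 were even, so the spread of low counts may differ from that of single reads, which was not tested. Gene symbols were taken from GENCODE M21 by Ensembl identifier, matching 51948 and 51880 identifiers, and promoters from RefSeq tables of GRCm38.p6.

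Counts were tested with edgeR 4.0.16 and limma 3.58.1 in R 4.3.3: TMM scaling, a filter on low counts (filterByExpr with a minimum count of 10 and a minimum total of 15) and the quasi-likelihood F test with Benjamini-Hochberg adjustment over all genes tested, called at an adjusted p of 0.05. Each within-day fit held all 3 groups of that day, and the change between days was an interaction over all 6 groups. Log2 levels used a prior count of 2. DESeq2 1.42.0, RLE scaling, no filter, a replicate block, marker-list covariates, libraries summed by the first number of their name and, within a day, the omission of each library were the alternatives, and the macrophage and proliferation covariates among them were added after the data were seen. For the change between days, only day 7 type 1 replicate 4 was left out for type 1 and only day 28 type 2 replicate 4 for type 2. Intervals of fold changes are 95% intervals. Shared sequence was counted in stretches of 75 bases of the M21 transcripts. The fitting scripts were tested on simulated data. Figures were drawn with Python 3.11.15 and matplotlib 3.10.9.

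The members, the marker lists and the other pathway lists were chosen with earlier results of these data known, so their counts are read against all genes tested and carry no test of their own. Values are given for members called in at least 1 within-day comparison and for Srebf1, Srebf2, Insig1, Hmgcs1, Sqle, Acly, Fasn, Scd1 and Scd2. For the other pathway lists at most 3 called genes per list and comparison are named. Pmvk, Mvd, Cyp51, Tm7sf2, Ebp, Dhcr7, Acss2, Acaca, Elovl6 and Fads2 are given by counts and ranges, and those with a value of their own, like Mrc1, Msr1 and Adipoq, were named after their values were seen. One called gene of these lists is not reported here.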

Additional observations from a re-analysis of the deposited data

Results flagged for a closer look

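In the 5 groups of 8 or 10 libraries, 150 combinations of a member and a group were checked for a single library far from the rest (Dixon's criterion, which chance meets in about 5.0% of groups), and 11 met it, or 7.3%. The day 28 non-diabetic group of 11 was not checked. At day 7, Mvd stood at 20.25 CPM in non-diabetic replicate 5, the next library being at 11.66, and Tm7sf2 at 2.89 CPM in non-diabetic replicate 4 (next 5.315) and at 3.832 CPM in type 2 replicate 3 (next 4.593). Non-diabetic replicate 4 had the lowest total of day 7, 10756242 counts. Acss2 stood at 12 CPM in type 2 replicate 7 (next 15.84), and Scd1 at 204.4 CPM in type 1 replicate 4 (next 52.17), the library with fat cell and B cell markers.

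At day 28, type 1 replicate 10 was apart for 3 fatty acid enzymes: Fasn at 155.1 CPM (next 67.03), Acss2 at 36.29 CPM (next 30.67) and Acaca at 23.14 CPM (next 17.84). This library also had the highest Adipoq level of its group, 49.6 CPM. Type 2 replicate 4, with the B cell markers and 34.4 CPM of Adipoq, was apart for Sqle at 11.52 CPM (next 6.809), Ebp at 29.21 CPM (next 22.56) and Srebf2 at 110.4 CPM (next 78.4).

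The type 1 effect differed between the days, by edgeR's interaction test, for 15 members. The log2 differences, day 28 minus day 7, were -0.71 for Hmgcs1, -0.74 for Msmo1, -1.01 for Hsd17b7, -0.67 for Scd2, -0.49 for Fdps, -0.97 for Idi1, -0.51 for Insig1, -0.79 for Sqle, -0.37 for Sc5d, -0.39 for Fdft1, -0.54 for Stard4, -2.39 for Scd1, -0.39 for Mvk, -0.44 for Lss and -0.88 for Elovl6. The day and the sequencing project cannot be told apart.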

How the results depend on the processing

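Of 2697 values of single genes under the alternatives, 2295 kept their call or, where called in neither fit, moved by no more than their SE, 241 gained or lost a call in the same direction, and 157, called in neither fit, moved by more. Uncalled values also changed sign, and 4 called ones did, all with type 1 against no diabetes at day 7: with the proliferation covariate Hmgcs1 (-0.025), Sqle (-0.0138) and Stard4 (-0.0839), and with the macrophage covariate Acly (-0.0278). For that comparison the members called higher, 8 above, were 1 with the heart muscle covariate, 0 with the macrophage and 0 with the proliferation covariate, 2 with summed libraries and 3 to 10 when 1 library was left out, and those called lower, 0 above, were 1 with DESeq2, 1 with the heart muscle and 1 with the proliferation covariate, and 0 to 2 without 1 library. The 8 called higher in type 1 than in type 2 at day 7 became 0 with summed libraries and 5 to 11 without 1 library. The 1 called lower with type 2 at day 7 became 0 with no filter, 0 with summed libraries, 3 with the heart muscle and 6 with the proliferation covariate, and 0 to 1 without 1 library. Of all genes 1012 and 42 were lower with those 2 covariates, against 636 with none. Without 1 library, the genes called in either direction also varied. They numbered 3201 to 5345 for type 1 and 738 to 1975 for type 2 against no diabetes, and 157 to 980 for type 1 against type 2.

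At day 28 the 4 called lower with type 1 became 7 with DESeq2, 9 with the heart muscle and 7 with the macrophage covariate, 0 with summed libraries, and 4 to 6 without 1 library. The 6 called lower with type 2 became 3 with no filter, 13 with the heart muscle, 10 with the macrophage and 3 with the proliferation covariate, 2 with summed libraries and 3 to 10 without 1 library, and 1 was called higher with the fat cell covariate and 0 to 1 without 1 library. The 2 lower in type 1 than in type 2 became 0 with the proliferation covariate, 0 with summed libraries and 2 to 3 without 1 library. Of all genes, those called in either direction without 1 library numbered 443 to 954 with type 1 and 1588 to 2447 with type 2. Between type 1 and type 2 they numbered 372 to 698. For the change of the type 1 effect, 15 above, 9 were lower with the macrophage covariate, which also gave 1 higher, 9 with the proliferation covariate and 2 with summed libraries. The cause of these shifts was not tested, and summing leaves fewer samples.

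Replicate numbers did not pair the samples: deviations of same-numbered libraries correlated between -0.547 and 0.573 at day 7 (12 of 24 pairs over 0.1) and between -0.439 and 0.533 at day 28 (13 of 30). With the replicate block 8 and 6 members were higher at day 7 for type 1 against no diabetes and against type 2. Of the 18165 genes tested, 2089 and 194 were higher in those fits. At day 28, 4 and 4 were lower for type 1 and type 2 against no diabetes, where 101 and 437 of the 18901 genes tested were. Between type 1 and type 2, 1 member was lower, where 235 of all genes were, and Scd1 had log2 -1.54 (adjusted p 0.21 in edgeR). For the change of the type 1 effect 14 members were lower, where 940 of the 20421 genes tested were.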
